A study of Mus musculus with 71 samples.

Results

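The comparison concerns NFIA-positive progenitors of the p2 and pMN domains on day 9 of the differentiation of mouse embryonic stem cells, with chromatin accessibility as the readout. Its members were chosen by their labels: 6 of the 71 libraries carry genotype WT, day 9 and the NFIAp fraction, 3 of them labelled p2 and 3 labelled pMN. The difference was taken between p2 NFIAp replicates 1 and 3 and pMN NFIAp replicates 1 to 3, and p2 NFIAp replicate 2 was kept out of it and placed on it afterwards. This choice was made with earlier results on these libraries known, since the library labelled p2 NFIAp replicate 2 goes against its label over most of the intervals described here.

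The series follows ventral spinal cord progenitors from day 5 to day 11 and sorts them into p0-p1, p2 and pMN. All cultures followed 1 protocol, in N2B27 with bFGF, then the GSK3 inhibitor CHIR99021, then retinoic acid with the Smoothened agonist SAG, and from day 5 with SAG alone. Dead cells were removed, and the cells were fixed, transposed and stained inside the cell, with SOX2, Nkx6.1 and Olig2 among the markers, so the label of a population rests on a gate (CaTS-ATAC). On day 9 the WT cells of p2 and pMN are also split by NFIA, into the NFIAp libraries described here and NFIAn libraries, 3 of p2 and 2 of pMN. The WT day 11 libraries are NFIAp, and the libraries of genotype MUT, whose altered gene the labels do not name, are NFIAn throughout. Other comparisons below use p0-p1 as a further population.

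The p2 and pMN domains lie next to each other in the ventral neural tube. The pMN domain is marked by Olig2 and gives rise to motor neurons and later to oligodendrocyte precursors, and the p2 domain, which lacks Olig2, gives rise to V2 interneurons. NFIA is a transcription factor that appears in spinal progenitors at the onset of gliogenesis, so NFIA-positive cells of both domains are cells at the later stage of the progenitor program. Accessibility is read as transposase insertions counted per interval: a high value means that the DNA of that interval was open in many of the sorted cells, and in a bulk sort a smaller share of open cells and a weaker opening in each cell cannot be told apart.

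Each of the 6 libraries held between 22662664 and 25475308 reads in 155738 intervals, of which 155734 were tested. Values are normalised reads, that is reads divided by 1 factor per library, and tests used log2(value + 5), which understates the change of low intervals. The intervals are numbered and carry no position or gene, so no gene is named, no sequence is shown, and the sort markers could not be checked against their own genes. Labels number the replicates and do not say that they are separate cultures, so a p-value here reflects how much libraries vary and no more. The spread it uses was pooled over all 71 libraries, not taken from these 6 alone. That pooled spread is below the one of p2 NFIAp, the most variable group. The spread differed between the groups: the replicate SD on the log2 scale, as a root mean square over intervals, was 0.413 in p2 NFIAp with replicates 1 and 3 alone, the largest of the 26 groups. It was 0.310 in pMN NFIAp and 0.302 in the median group, and including replicate 2 brought p2 NFIAp to 0.454.

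Between NFIA-positive p2 and pMN, 5488 intervals differed, which is 3.52% of those tested (limma, Benjamini-Hochberg adjusted p under 0.05 and at least a 2-fold difference). Of these, 3241 were higher in p2, 2.08% of those tested, and 2247 were higher in pMN, 1.44%. Most differences lay close to the threshold: the median size was 1.25 on the log2 scale for the intervals higher in p2 and 1.22 for those higher in pMN, and 127 and 82 intervals passed a 4-fold difference. The intervals higher in pMN were the more accessible ones, with a median value over the 5 libraries of 42.5 against 24.5, where the median of all intervals was 28.2. The 2 groups did not overlap in 3006 intervals higher in p2 (92.7%) and in 2222 higher in pMN (98.9%), whereas over all tested intervals p2 lay wholly above pMN in 15.4% and wholly below it in 14.3%. The number moved with the p2 libraries used: it was 8500 without p2 replicate 1, 3018 without p2 replicate 3 and 1228 with replicate 2 counted as p2. It was 598 when the fit held only these 5 libraries and took the spread from them alone.

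The 10 largest differences in each direction were picked from called intervals at or above the median level with no overlap between the 2 groups. Their separation was thus set by the choice. Among those higher in pMN, the p2 libraries were within 2-fold of each other in 7 of the 10. Interval_58546 had the largest, with 157 normalised reads in pMN replicate 1, 172 in replicate 2 and 260.1 in replicate 3, against 16.0 in p2 replicate 1 and 12.2 in p2 replicate 3. The pMN libraries were all far above both p2 libraries, and the difference was -3.37 ± 0.29 (SE) on the log2 scale, adjusted p = 6.87e-13 by limma. The library labelled p2 NFIAp replicate 2 had 125 there and so stood just under the pMN libraries.

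Interval_82857 had 155, 183 and 166 normalised reads in pMN replicates 1, 2 and 3, against 14.1 and 12.2 in p2 replicates 1 and 3. It was low in both p2 libraries and high in each pMN library, by -3.25 ± 0.29 (SE), adjusted p = 1.54e-12 by limma, while the library labelled p2 NFIAp replicate 2 had 239. Interval_37707 had 213, 198 and 165 in pMN and 16.0 and 26.2 in p2, a difference of -2.94 ± 0.28 (SE). The library set apart again read like pMN, with 158.

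Over these 10 intervals the log2 difference ran from -3.37 to -2.69, and all 10 were also called higher in pMN in the NFIA-negative libraries of day 9, where 1.07% of all intervals were. On day 11 all 10 had a lower mean in p2, and 6 of the 10 were called, where 1.77% of all intervals were. The intervals are Interval_58546, Interval_82857, Interval_135816, Interval_2440, Interval_37707, Interval_25645, Interval_127473, Interval_25309, Interval_98211 and Interval_10132. In all 10 the library labelled p2 NFIAp replicate 2 was above both other p2 libraries. Between the p2 libraries, Interval_10132 was the least even of those led by replicate 1, with 88.3 in replicate 1 and 26.2 in replicate 3.

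Among intervals higher in p2, the 10 largest differences were uneven between the 2 p2 libraries. Interval_140792 had 22.6 normalised reads in p2 replicate 1 and 209.8 in replicate 3, against 3.88, 5.29 and 8.16 in pMN replicates 1, 2 and 3. Both p2 libraries were above all pMN libraries, as the choice required, but replicate 3 was 9.30 times replicate 1. The difference was 2.86 ± 0.54 (SE) on the log2 scale, adjusted p = 2e-04 by limma, and without replicate 3 it was 1.37 with an adjusted p of 0.29. The library labelled p2 NFIAp replicate 2 had 9.33.

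In 9 of these 10 intervals p2 replicate 3 was at least 2-fold above replicate 1. Over the 9 intervals the median was 184 in p2 replicate 3 and 31 in replicate 1, against 7.75, 7.40 and 10.2 in the pMN libraries. In 8 of the 9 the call was lost without replicate 3. The 9 are Interval_140792, Interval_1745, Interval_66696, Interval_29257, Interval_100556, Interval_149928, Interval_12501, Interval_4706 and Interval_80812.

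The tenth was even. Interval_44160 had 196 normalised reads in p2 replicate 1 and 147 in replicate 3, against 20.4, 29.6 and 26.5 in pMN. The p2 libraries were well above the pMN libraries, by 2.53 ± 0.27 (SE) on the log2 scale, adjusted p = 8.59e-10 by limma, and the library labelled p2 NFIAp replicate 2 had 31.1. Interval_48008, a much more open interval, was also even between the p2 libraries, with 718 and 465 against 96.9, 114 and 127 in pMN. There the difference was 2.31 ± 0.18 (SE), adjusted p = 5.45e-15 by limma, and the library set apart had 175, above the pMN libraries but far under both p2 libraries.

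**Figure D1:**
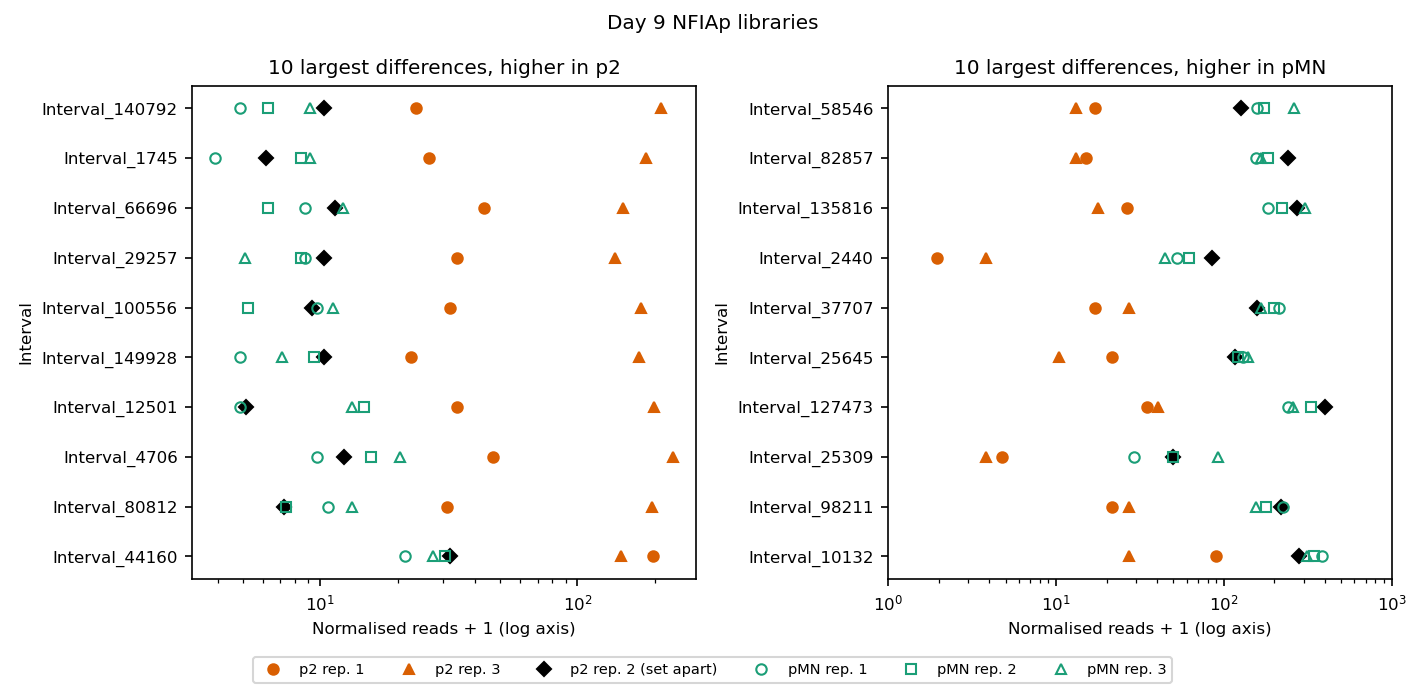
Normalised reads plus 1 (log axis) in each of the 6 day 9 NFIAp libraries, for the 10 intervals with the largest difference in each direction; orange marks are p2 replicates 1 and 3, open green marks the pMN replicates, and black diamonds the library labelled p2 NFIAp replicate 2. On the left p2 replicate 3 (triangles) is at least 2-fold above replicate 1 in 9 of 10 intervals, and on both sides the black diamonds lie with or near the green marks.

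The imbalance reached well beyond the named intervals. Of the 3241 intervals higher in p2, 1346 (41.5%) had replicate 3 at least 2-fold above replicate 1, 1803 (55.6%) had the replicates within 2-fold of each other, and 92 (2.84%) had replicate 1 on top. Over all tested intervals, replicate 3 was 2-fold above replicate 1 in 4.34% and 2-fold below it in 4.27%. Of the 2247 intervals higher in pMN, 2044 had the p2 replicates within 2-fold. This split uses the same values as the test, so it is a description.

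The intervals led by p2 replicate 3 and the even ones behaved differently in other libraries of the series. The median value of the 1346 intervals was 74.9 in p2 NFIAp replicate 3, 19.7 in replicate 1, and between 10.6 and 12.2 in the 3 pMN NFIAp libraries. In the NFIA-negative p2 libraries of day 9 it was 10.3, 13.2 and 12.6, no higher than in the p0-p1 libraries, which had 11.3, 14.5 and 13.8. On day 11 it was 37.1 in WT p2 replicate 3, against 21.7 and 16.7 in replicates 1 and 2, and 31.2 in MUT p2 replicate 3, against 13.1 and 15.3. The same intervals were thus raised in 2 further libraries of p2 with the replicate number 3, both of day 11 and of different genotype, and what the number stands for is not in the labels. The third replicate of the day 9 NFIAn p2 libraries did not show this. On day 7, p2 replicates 1, 2 and 3 had 11.9, 16.6 and 16.6 in WT and 13.7, 16.5 and 18.2 in MUT. In MUT p2 on day 5 they had 19.3, 23.9 and 24.6, so replicate 3 was close to replicate 2 in these groups. On day 5 the same intervals were highest in p0-p1, with 27.2 and 25.9 in WT and 37.5, 29.4 and 32.1 in MUT. They were at 18.2 to 24.6 in the p2 and pMN libraries of both genotypes.

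The 1803 even intervals had a median of 35.7 and 37.5 in p2 NFIAp replicates 1 and 3, and of 12.6, 12.7 and 13.3 in pMN NFIAp. They were also open in the NFIA-negative p2 libraries of day 9, at 30.7, 30.8 and 28.6, and in the WT day 11 p2 libraries, at 38.2, 37.6 and 34.6. The NFIA-negative pMN libraries had 12.7 and 12.96. The p2 and pMN libraries did not overlap on either day, and the library labelled p2 NFIAp replicate 2, at 13.5, was just above the pMN libraries. Of the even intervals, 47.0% were called higher in p2 among the NFIA-negative libraries, where 4.85% of all intervals were, and 39.5% on day 11, where 2.19% were. For the intervals led by replicate 3 the shares were 4.46% and 14.4%. The day 11 share includes WT p2 replicate 3, in which these intervals were raised.

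**Figure D2:**
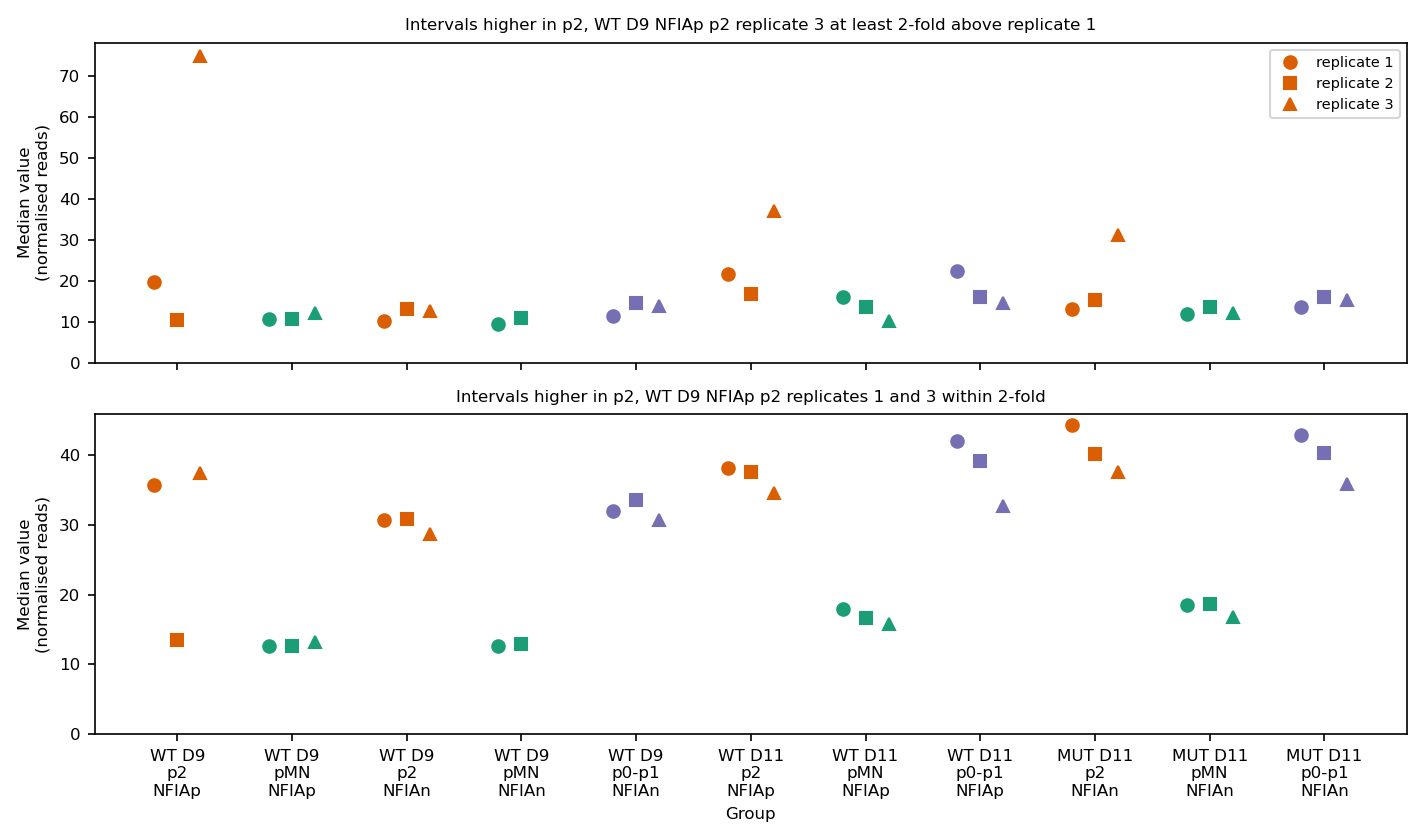
Median normalised reads in each library for the 1346 intervals led by p2 NFIAp replicate 3 (top) and for the 1803 even intervals (bottom); colours are populations (orange p2, green pMN, violet p0-p1), marks are replicate numbers, and both axes start at 0. In the top panel p2 replicate 3 stands out in 3 groups, and in the bottom panel the p2 and p0-p1 libraries of days 9 and 11 lie well above the pMN libraries, apart from the day 9 NFIAp library labelled p2 replicate 2, at 13.5 against 12.6 to 13.3 in pMN.

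A smaller set of intervals was called whichever of the 5 libraries was left out. It held 402 intervals higher in p2 and 722 higher in pMN. Of the 402, 75.1% were also higher in p2 among the NFIA-negative libraries of day 9, where 4.85% of all intervals were. On day 11 it was 69.7%, where 2.19% of all intervals were. Of the 722, 48.8% were also higher in pMN among the NFIA-negative libraries, where 1.07% of all intervals were, and 27.1% on day 11, where 1.77% were. The fall in number was steeper on the p2 side, from 3241 to 402, than on the pMN side, from 2247 to 722.

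The library labelled p2 NFIAp replicate 2 lay close to pMN on the difference between the domains. On a scale where the pMN NFIAp mean is 0 and the mean of p2 replicates 1 and 3 is 1, computed over the 5488 intervals, its position was 0.060. Since the other libraries helped to set this scale, each was placed on a scale refitted without it, over the intervals called in that refit. For each p2 library the p2 end was then the other p2 library alone, so these scales are unlike each other. On them p2 replicate 1 came to 0.352, p2 replicate 3 to 0.655, and the pMN replicates to 0.223, 0.064 and 0.147. Read across these scales, replicate 2 was at the low end of the 3 pMN libraries, whose SD was 0.080. Both other p2 libraries were above them all. The NFIA-negative libraries, which had no part in the scale of the 5488 intervals, stood on it at 0.557 to 0.58 for p2. Those of pMN stood at 0.062 and 0.028.

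Interval by interval, replicate 2 was nearer to the pMN mean than to the p2 mean in 88.1% of the 5488 intervals, 91.4% of those higher in p2 and 83.4% of those higher in pMN. Held out in the same way, each over the intervals of its own refit, p2 replicate 1 was nearer to pMN in 66.8% and p2 replicate 3 in 35.7%. Replicate 2 fell inside the range of the 3 pMN libraries in 44.1% of the intervals higher in p2 and 41.0% of those higher in pMN. It fell inside the range of the 2 p2 libraries in 5.52% and 6.14%, and between the 2 ranges in 26.3% and 30.1%.

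On a pair of scales drawn from libraries outside these 6, p2 replicates 1 and 3 were again above all pMN NFIAp libraries, and replicate 2 was below both. On the scale of the NFIA-negative day 9 libraries, over 9217 intervals, replicate 2 was at 0.118, the pMN NFIAp replicates at 0.032, 0.089 and 0.173, and p2 replicates 1 and 3 at 0.47 and 0.558. Replicate 2 lay inside the pMN range here. On the scale of the day 11 libraries, over 6177 intervals, all day 9 libraries were shifted toward p2: the pMN replicates were at 0.456, 0.598 and 0.661, p2 replicates 1 and 3 at 0.998 and 1.042, and replicate 2 at 0.705. It was just above the pMN range there, next to the NFIA-negative pMN libraries at 0.565 and 0.709.

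**Figure D3:**
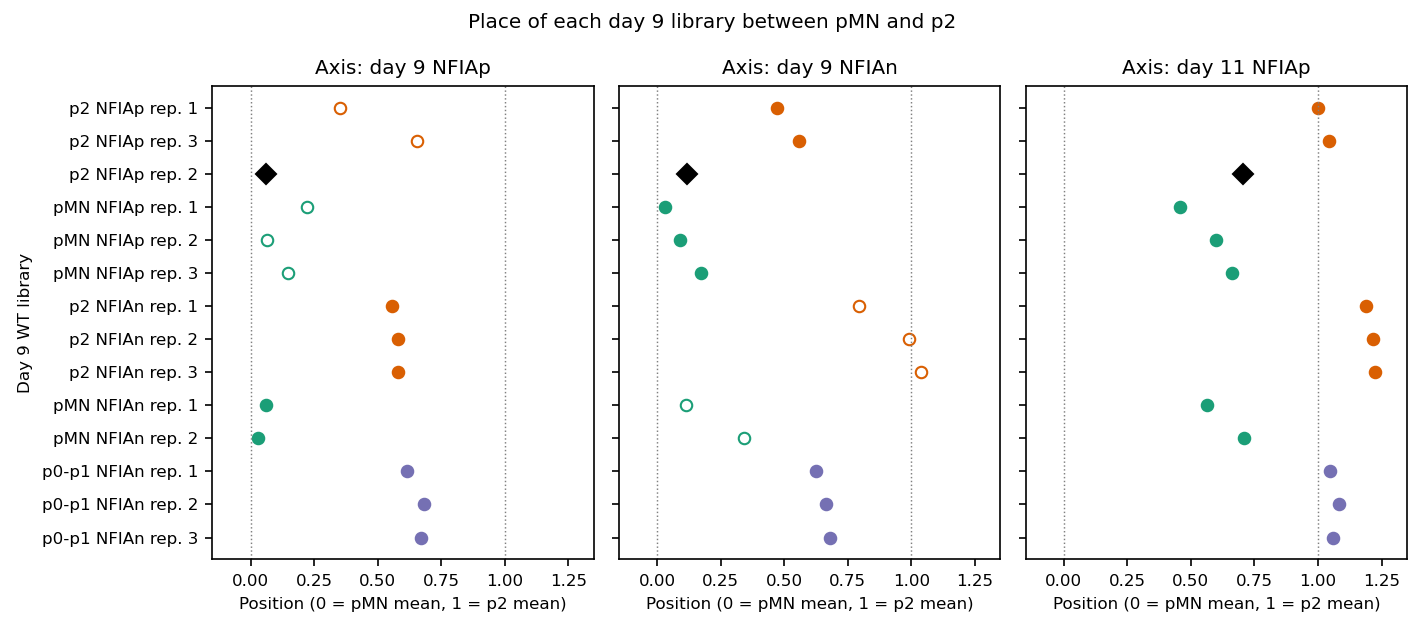
Position of each WT day 9 library between the pMN mean (0) and the p2 mean (1) on 3 scales, from the day 9 NFIAp, day 9 NFIAn and day 11 NFIAp libraries; open marks are libraries held out of the scale they helped to set, and the black diamond is the library labelled p2 NFIAp replicate 2. The diamond is at 0.060, 0.118 and 0.705, beside the green pMN libraries in each panel, while p2 replicates 1 and 3 lie to the right of all pMN NFIAp libraries.

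Over all tested intervals the nearest library to replicate 2 was of the other population and the other fraction. Its root mean square distance on the log2 scale was 0.391 to pMN NFIAn replicate 2 and 0.442 to pMN NFIAn replicate 1. It was 0.450 and 0.469 to pMN NFIAp replicates 2 and 3, and 0.683 and 0.657 to p2 NFIAp replicates 1 and 3. The chi-square statistic per interval between replicate 2 and pMN NFIAn replicate 2 was 1.72, where sampling noise alone gives about 1. The lowest value for any pair of WT day 9 libraries was 1.44. The p2 NFIAp replicates 1 and 3 were themselves 0.584 apart. Replicate 1 was nearer to each pMN NFIAp library than to p2 replicate 3, at 0.493, 0.552 and 0.577 from pMN replicates 1, 2 and 3. For p2 replicate 3 the nearest library was p2 replicate 1.

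**Figure D4:**
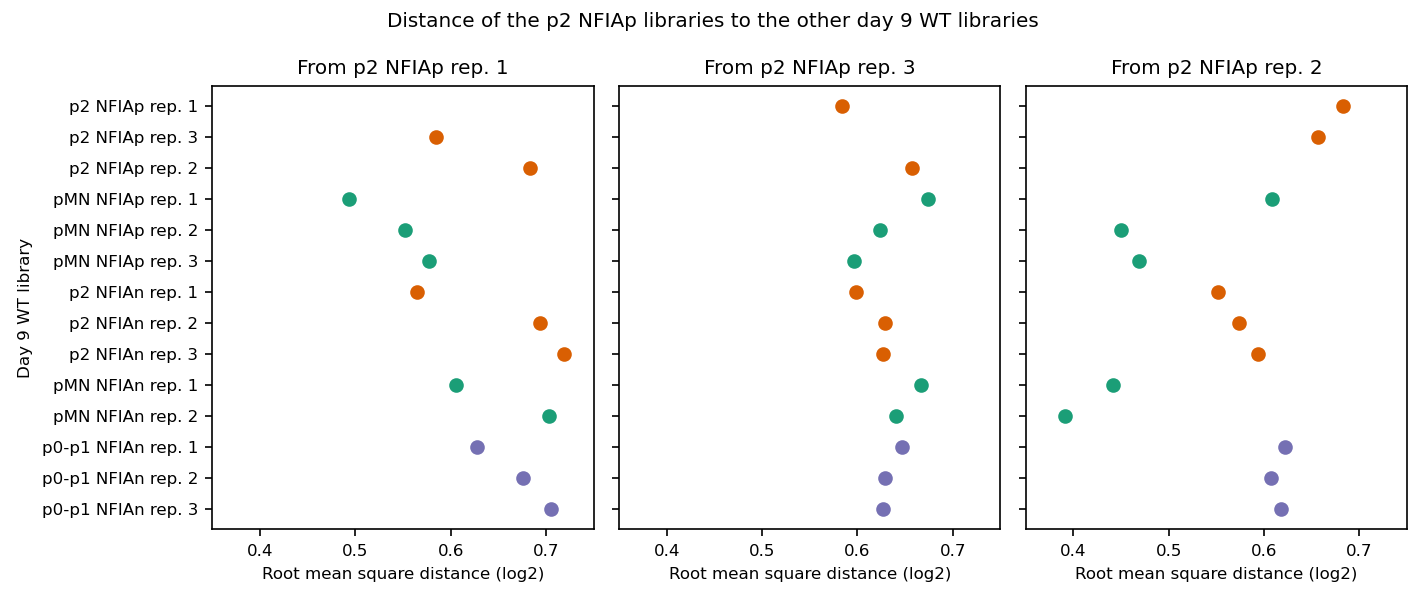
Root mean square distance on the log2 scale, over all tested intervals, from each of the 3 p2 NFIAp libraries to the other WT day 9 libraries (orange p2, green pMN, violet p0-p1). For replicate 2 the smallest distance is 0.391, to pMN NFIAn replicate 2; for replicate 1 it is 0.493, to pMN NFIAp replicate 1; for replicate 3 it is 0.584, to p2 NFIAp replicate 1.

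Tests of the single library used the spread pooled over all groups and assumed that it varies like the others. With only the groups compared in the fit, limma called 0 intervals both against p2 replicates 1 and 3 (9259 at an unadjusted p under 0.05; edgeR over all groups called 8415) and against pMN NFIAp (17452; edgeR 719). Replicate 2 differed from p2 replicates 1 and 3 in 8388 intervals, 5.39% of those tested, 2992 higher (1.92%) and 5396 lower (3.46%). After quantile normalisation 48.9% of the calls were higher instead of 35.7%. Against pMN NFIAp it differed in 841 intervals, 0.54%, 173 higher (0.111%) and 668 lower (0.429%). That count was 57 without pMN NFIAp replicate 1, 1340 without pMN replicate 2 and 1436 without pMN replicate 3. Against pMN NFIAn it differed in 1 interval, 0.000642%, with 4686 at an unadjusted p under 0.05, and edgeR on the recovered reads called 0 with 4258 at an unadjusted p under 0.05. Against p2 NFIAn it differed in 6441 intervals, 4.14%, 1429 higher (0.918%) and 5012 lower (3.22%).

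The same test on the other libraries gives the scale of these counts. The p2 replicates 1 and 3 differed from each other in 1694 intervals, 1.09%. Set against pMN NFIAp alone, p2 replicate 1 differed in 3012 intervals, 1.93%, and p2 replicate 3 in 8504, 5.46%. Against the mean of p2 replicates 1 and 3, the pMN NFIAp replicates differed in 2872, 3091 and 3036 intervals, 1.84%, 1.98% and 1.95%. The 841 calls of replicate 2 against pMN are fewer than any of the calls of the other 2 p2 libraries against pMN; these comparisons share the pMN libraries.

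Replicate 2 was also placed on a scale of days. The day 5 libraries are NFIAn and the WT day 11 libraries NFIAp, so stage and NFIA fraction cannot be told apart on it. On a scale from day 5 (0) to day 11 (1), over the 69722 intervals that changed between those days in the mean of WT p2 and pMN (44.8% of those tested), it was at 0.429. The pMN NFIAp replicates were at 0.683, 0.561 and 0.551, and p2 NFIAp replicates 1 and 3 at 0.677 and 0.511. The NFIA-negative libraries were at 0.525 and 0.433 for pMN and at 0.507, 0.425 and 0.424 for p2. All 5 other NFIAp libraries were thus further along than replicate 2, which lay among the NFIA-negative libraries, as did p2 replicate 3. Position also went with the replicate number. In each of these groups replicate 1 was the furthest along, as it was in p0-p1 NFIAn, at 0.473 against 0.408 and 0.405. The cause of this was not tested.

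The difference between p2 and pMN was then set beside the same difference in the NFIA-negative libraries of day 9, which share no library with it. There 9217 intervals differed, 5.92%, 7549 higher in p2 (4.85%) and 1668 higher in pMN (1.07%). The calls shared in direction were 944 higher in p2, 29.1% of the NFIA-positive list and 12.5% of the NFIA-negative one. In the other direction 768 were shared, 34.2% and 46.0% of the lists. Without pMN NFIAn replicate 1, 6055 intervals were called in the NFIA-negative comparison.

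The 2 fractions differed in the size of the domain difference in 2427 intervals, 1.56% of those tested (limma, interaction term). The difference p2 minus pMN was larger in NFIAp in 429 intervals, 0.275%, and smaller in NFIAp in 1998, 1.28%. Of the 429, 304 were among the intervals called higher in p2, which were 2.08% of those tested; both lists rest on the same NFIAp libraries, so nothing is read from this. Over the 1998 the median difference was 1.32 in NFIAn and -0.11 in NFIAp, where the list was chosen on both. It was 0.50 among the WT libraries of day 11 and 0.91 among the MUT libraries of day 9, against medians of 0.00 over all intervals in each. On day 5 it had the other sign, with -0.79 in WT and -0.83 in MUT, and on day 7 it was 0.41 and 0.32. In Interval_70100, p2 NFIAn had 95.9, 93.4 and 144.8 and pMN NFIAn 7.41 and 12.96, whereas p2 NFIAp replicates 1 and 3 had 37.6 and 56.2 and pMN NFIAp 30.0, 21.1 and 38.8. The p2 and pMN libraries were well apart in NFIAn and overlapped in NFIAp, and the difference between fractions was -2.36 ± 0.48 (SE), adjusted p = 0.00285 by limma.

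The count of 2427 depended on single libraries. It was 200 without pMN NFIAn replicate 1, 1192 without pMN NFIAp replicate 3, 1224 and 1367 without p2 NFIAn replicates 3 and 2, 1426 without p2 NFIAp replicate 3, 1611 without pMN NFIAp replicate 2 and 3866 without p2 NFIAp replicate 1. The direction moved too: 55.4% of the calls were larger in NFIAp without p2 NFIAp replicate 1 and 3.6% without p2 NFIAp replicate 3, against 17.7% with all libraries.

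On day 11 the NFIA-positive libraries of p2 and pMN differed in 6177 intervals, 3.97%, 3416 higher in p2 (2.19%) and 2761 higher in pMN (1.77%). Calls shared with day 9 were 960 higher in p2, 29.6% of the day 9 list and 28.1% of the day 11 list, and 451 higher in pMN, 20.1% and 16.3%. Another 3 intervals from each day 9 list were called in the opposite direction on day 11. Of the day 9 calls, 612 higher in p2 (18.9%) and 204 higher in pMN (9.08%) were also found both in the NFIA-negative libraries and on day 11. Over all tested intervals these joint shares cannot exceed 2.19% and 1.07%, the smaller of the single shares. In neither were 1949 (60.1%) and 1232 (54.8%). That share was not computed over all intervals. It is larger there, since only 4.85% and 2.19% of all intervals were called higher in p2 in the NFIA-negative and day 11 comparisons. Higher in pMN were 1.07% and 1.77%.

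Days 9 and 11 differed in the size of the domain difference in 1511 intervals, 0.97%: 852 had a higher p2 minus pMN value on day 11 (0.547%) and 659 a lower one (0.423%). Interval_58546, the leading pMN interval, narrowed on day 11, with 69.4, 51.2 and 47.8 in p2 and 150.1, 97.5 and 126 in pMN. The populations were still apart, and the change between days was 2.29 ± 0.39 (SE), adjusted p = 0.000362 by limma. Interval_135816 had 235 ± 60.6 (SD, n = 3) in pMN and 21.1 ± 6.02 (SD, n = 2) in p2 on day 9, and 61.4 ± 19.1 (SD, n = 3) and 49.3 ± 9.75 (SD, n = 3) on day 11. Interval_82857 did not pass this test (0.85 ± 0.39 SE, adjusted p = 0.428 by limma) and stayed higher in pMN on day 11, at 64.9 ± 15.7 against 8.32 ± 3.64 (SD, n = 3 each). Without single libraries the count of 1511 was 672 and 783 (pMN day 9 replicates 3 and 2), 686 and 2662 (p2 day 9 replicates 3 and 1), 732 (p2 day 11 replicate 2), 739 (pMN day 11 replicate 1) and 2429 (pMN day 9 replicate 1), and it was 18 with these groups alone in the fit.

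Followed across the series, the intervals higher in pMN were already lower in p2 on day 5, with a median p2 minus pMN difference of -0.94 in WT, -0.97 on day 7, -0.75 in the NFIA-negative libraries of day 9 and -0.47 on day 11. The medians in MUT were -0.99, -0.95, -0.86 and -0.50 for days 5, 7, 9 and 11. For the intervals higher in p2 the medians were 0.24 on day 5, 0.43 on day 7, 0.44 on day 9 in NFIAn and 0.70 on day 11 for WT. The MUT medians were 0.26, 0.42, 0.48 and 0.59 in the order of the days. This list mixes the intervals led by p2 replicate 3 with the even ones. In WT the even ones had 0.34, 0.71, 0.93 and 0.83 on days 5, 7, 9 (NFIAn) and 11. Those led by replicate 3 had 0.14, 0.22, 0.11 and 0.58. The 0.58 includes WT day 11 p2 replicate 3, where their median value was 37.1, against 21.7 and 16.7 in replicates 1 and 2. The rise of the whole list on day 11 was thus not seen in the even intervals. The medians over all tested intervals lay between -0.03 and 0.06 in all these comparisons. The value on day 9 in NFIAp, 1.25 and -1.22, chose the lists.

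**Figure D5:**
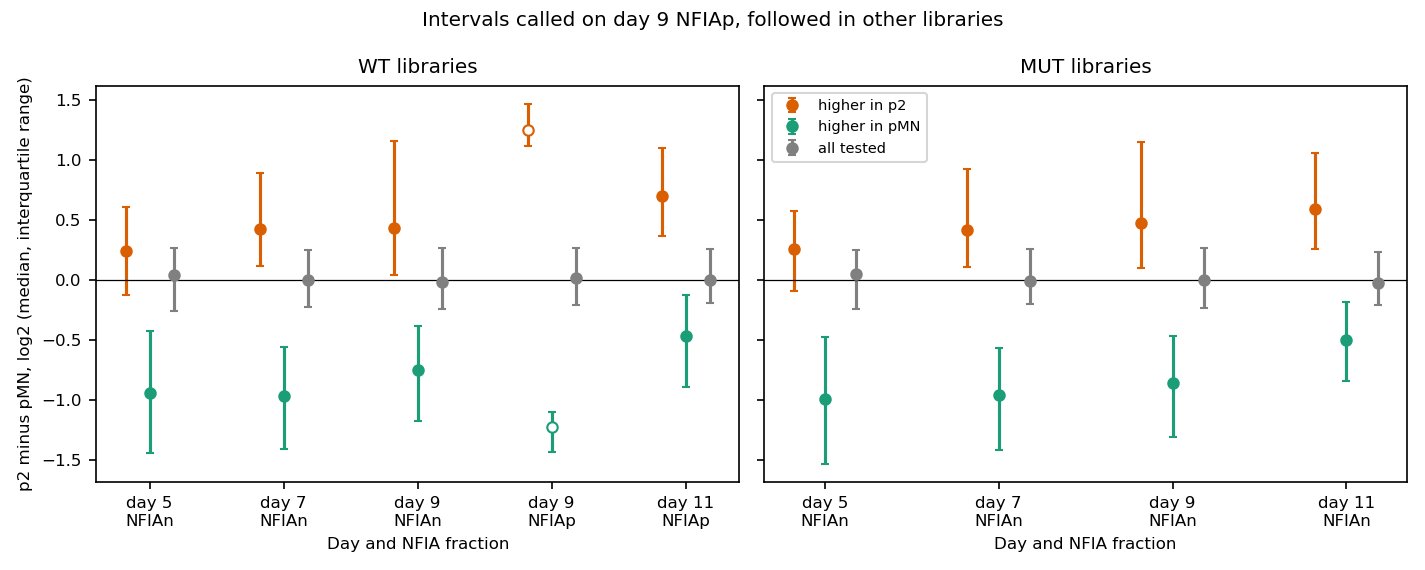
Median p2 minus pMN difference (log2, bars from the first to the third quartile over intervals) for the 3241 intervals higher in p2 (orange), the 2247 higher in pMN (green) and all tested intervals (grey), by day and NFIA fraction in WT (left) and MUT (right); open marks are the comparison that chose the lists. The green medians are between -0.94 and -0.99 on day 5 and about -0.5 on day 11, while the orange medians run from 0.24 and 0.26 on day 5 to 0.70 and 0.59 on day 11. The orange list mixes even intervals with those led by p2 NFIAp replicate 3. In WT the even ones had 0.93 on day 9 in NFIAn and 0.83 on day 11, and the others 0.11 and 0.58.

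The p0-p1 domain, dorsal to p2, was like p2 on both lists. On day 9 the NFIA-negative p0-p1 libraries stood at 0.615, 0.682 and 0.669 on the scale from pMN to p2, all above the pMN libraries and the library labelled p2 NFIAp replicate 2. The median p0-p1 minus pMN difference was 0.57 for the intervals higher in p2 and -0.92 for those higher in pMN. The median p0-p1 minus p2 difference was 0.15 and -0.15.

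Few called intervals were neighbours in the numbering. Of the intervals higher in p2, 8.55% had the number before or after them called in the same direction, against 4.08% of all tested intervals. For those higher in pMN the shares were 7.43% and 2.84%. Runs of at least 3 numbers occurred 8 and 3 times. The longest run was Interval_90018 to Interval_90021, 4 intervals whose summed value was 164 and 315.6 in p2 replicates 1 and 3, between 83.3 and 104.7 in the pMN libraries and 81.9 in the library labelled p2 NFIAp replicate 2. Whether the numbering follows the genome is not stated in the labels.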

How the data were processed

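The authors deposited 1 table of signal values, reads per numbered interval divided by 1 factor for each library. The build is mm10 per the submitters' processing notes, and the aligner and peak caller are not given in the sources used here. Dividing each column by its step returned whole reads for 100% of values within 0.01, giving 20034731 to 31315134 reads over the 71 libraries. Reads are not all independent molecules, so counting error is only part of the error. Intervals that reached 10 in 2 or more libraries entered the tests, which ran in limma 3.58.1 (R 4.3.3) on log2(value + 5). The fit had 27 group means over the 71 libraries (44 residual degrees of freedom, mean-variance trend), with replicate 2 of WT D9 p2 NFIAp as a group of its own. Calls needed a Benjamini-Hochberg adjusted p under 0.05 over all tested intervals and an absolute log2 difference of at least 1. Alternatives included edgeR 4.0.16 on the recovered reads, other pseudocounts and filters, other scalings, a replicate block and leaving out each library. Named intervals are the 10 with the largest difference in each direction among called, non-overlapping intervals at or above the median level, plus up to 2 per class of further calls, 28 in all; the scripts were tested on simulated data. The libraries, intervals and lists were chosen with earlier results of these data known. Comparisons of each single library, the split by replicate and the day scale were added after seeing the data. The reference tables of genes, promoters and miRNAs were not used here.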

Additional observations from a re-analysis of the deposited data

Results flagged for a closer look

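The results here were singled out because the same contrast, p2 minus pMN, differed between the NFIA fractions or between the days by a test of the difference itself (limma, interaction term). The fractions differed in 2427 intervals and the days in 1511.

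Between the fractions, NFIAp minus NFIAn on the log2 scale, the difference was 3.12 in Interval_1745, 2.40 in Interval_66696, 2.26 in Interval_29257, 2.39 in Interval_100556, 2.73 in Interval_4706, 2.00 in Interval_70488 and 2.77 in Interval_119010. In each of these 7 intervals p2 NFIAp replicate 3 was at least 2-fold above replicate 1. It had 184.5 against 25.4 in Interval_1745 and 112.4 against 33.8 in Interval_70488. These differences thus lean on 1 p2 library. So do, at least in part, the day differences of Interval_70488 and Interval_63862 below. Between the fractions the difference also fell below 0. It was -1.52 in Interval_126035 and -1.46 in Interval_80930, where p2 was lower than pMN in NFIAp by more than in NFIAn. It was -2.36 in Interval_70100 and -2.30 in Interval_145233, where p2 was higher than pMN in NFIAn.

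Between the days, day 11 minus day 9 in NFIAp, the difference was -1.97 in Interval_70488 and -2.82 in Interval_63862. In Interval_63862 the pMN libraries had 12.6, 6.34 and 12.2 on day 9 and 346, 240 and 167 on day 11, and the p2 libraries 21.6 and 167 on day 9 and 202, 115 and 146 on day 11. It was 2.29 in Interval_58546, 2.93 in Interval_135816, 2.21 in Interval_2440, 1.32 in Interval_25645, 1.75 in Interval_127473 and 2.07 in Interval_25309, all higher in pMN on day 9. It was 1.64 in Interval_145233, which did not pass the test on day 9 in NFIAp.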

How the results depend on the processing

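Among the values of named intervals under the alternatives, 410 kept their side of the threshold, 26 did not and none reversed. These 26 all fell on intervals higher in p2 and led by p2 NFIAp replicate 3, and none on intervals higher in pMN. They came from the fits without that library, with only the groups compared or with replicate 2 included. For the count between p2 and pMN, day 9 NFIAp, leaving out a library gave 3018 to 8500, a pseudocount of 20 gave 1668, a mean value of at least 30 gave 2693, only these groups gave 598 and including replicate 2 gave 1228; edgeR called 7252. For NFIAn the count was 6055 to 10559 without a library, 3744 with the pseudocount of 20 and 5061 with the mean of at least 30, and for day 11 it was 5682 to 6922, 2279 and 3070. The fraction interaction gave 200 to 3866 without a library and 371 with only the groups compared; the day interaction gave 672 to 2662, 18, 970 with the mean of at least 30 and 686 with replicate 2 included. Replicate 2 against replicates 1 and 3 gave 7141 to 8584, 4303 with the pseudocount of 20 and 5577 with the mean of at least 30. With only the groups compared, limma called 0 of these with 9259 at an unadjusted p under 0.05 (edgeR 8415), and 0 against pMN NFIAp with 17452 (edgeR 719); without a library the latter gave 57 to 1436. Against pMN NFIAn, limma gave 11 with a pseudocount of 1 and 0 with a pseudocount of 20 (3553 at an unadjusted p under 0.05), a mean of at least 30 (1777), equal totals (4600), only the groups compared (3242), the replicate block (7427) or either pMN NFIAn library left out (4271 and 7826), and edgeR gave 0 (4258). The position of replicate 2 was -0.004 to 0.13 without a library and 0.705 on the day 11 scale. The replicate numbers were not taken as pairs, since only 2 numbers are shared by the groups. Deviations of same-numbered libraries correlated by 0.319 and 0.278, which is no ground against pairing. The deviations of the 2 p2 libraries mirror each other, so these are not separate values. With a replicate block the main count was 6034, the fraction interaction 4976, the day interaction 3006 and replicate 2 against pMN NFIAp 1841. The cause of these shifts was not tested. No stretch of numbers passed the limit for shifted intervals, so that alternative left out none. At the median value of 28.2 normalised reads a single library carries counting error beside the replicate spread.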
